A study of Mus musculus with 2 samples.

Results

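The cells described here are dividing basal keratinocytes of the mouse cheek that carried transcripts of G2 and mitosis. Their transcripts of the mucosal differentiation keratins Krt4 and Krt13 were still low. They were chosen by their own transcripts. For each cell, UMIs (unique molecular identifiers, which count captured RNA molecules) were scaled to 10000. The G2/M sum of Top2a, Cenpf, Ube2c, Ccnb1, Nusap1 and Prc1 had to reach 10 and be no lower than the S-phase sum of Mcm3, Ung, Hells, Dtl, Ccne2, Cdt1 and Rrm2, and Krt4 plus Krt13 had to stay under 80. The rule was met by 2669 of 15470 kept cells, 1149 of 6907 in library 1 and 1520 of 8563 in library 2. Of these members, 19.1% and 18.2% also had an S-phase sum of 6 or more. The name G2/M therefore follows the rule's sums, and cells still in S phase may be included. The members were compared with 4421 resting cells, a name that stands here only for low-keratin cells with both phase sums under 6. They were also compared with smaller classes in S phase or higher in mucosal keratins.

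Stratified epithelia are renewed by division in the basal layer, whose cells sit on the basement membrane through hemidesmosomes, express Krt5 and Krt14, and lose these features as they move up. In G2 a cell holds replicated chromosomes and builds up cyclins, mitotic kinases and spindle proteins, most of which are destroyed at the end of mitosis. Transcription of these genes is periodic, and many of their promoters carry a cell-cycle homology element (TTTGAA) and CCAAT boxes, through which the DREAM and MuvB complexes and the factor NF-Y are known to act. Buccal cells came from female C57BL/6 mice aged 12 weeks. Cells from 10 animals were pooled and sorted for high CD104, the integrin β4 chain encoded by Itgb4, and 1 suspension was divided over 2 technical replicates on the 10x Chromium platform. The study looked for sub-populations among basal cells. The 2 libraries therefore amount to 1 independent sample, differences between mice cannot be seen, and no significance test was made.

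Library 1 held 67962712 UMIs in 7215 barcodes and library 2 held 73935792 in 9076. Both libraries shared 104 barcodes, and 10 members in library 1 and 20 in library 2 had a barcode that also occurred in the other library. Scrublet marked 1 barcode as a doublet in each library, 0.0139% and 0.011% of barcodes, which is too few for its calls to be used, so none was removed. The barcode marked in library 1 was a member. Levels are UMIs summed over the cells of a class within a library and scaled to 1000000 (CPM). A gene was called higher or lower when each library showed a difference of 1.5-fold or more one way, which is 0.58 in log2 units, and the 2 classes averaged 20 CPM or more. Intervals are 95% exact intervals that cover counting error only. Because the rule used cell-cycle and keratin transcripts of these same cells, every difference between classes is a description and none is a test.

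The promoters of 5 marker genes and of 2 of the 3 genes that stood highest over resting cells outside the rule are shown. Cenpf, Ube2c, Ccnb1 and Top2a belong to the rule's own sum, and Kif11 and Gas2l3 were picked by their rank. That these genes were high together was thus set by the choice. Each promoter window runs from 250 bases before to 50 bases after the RefSeq start on GRCm38.p6, 5′ to 3′ on the gene's own strand. Capitals mark TTTGAA and CCAAT on either strand, the minus-strand matches reading TTCAAA and ATTGG. The windows are Cenpf at chr1:189688037-189688336 (minus strand), Ube2c at chr2:164769679-164769978 (plus), Ccnb1 at chr13:100786437-100786736 (minus), Aspm at chr1:139454523-139454822 (plus), Top2a at chr11:99024140-99024439 (minus), Kif11 at chr19:37376132-37376431 (plus) and Gas2l3 at chr10:89443918-89444217 (minus).
Cenpf: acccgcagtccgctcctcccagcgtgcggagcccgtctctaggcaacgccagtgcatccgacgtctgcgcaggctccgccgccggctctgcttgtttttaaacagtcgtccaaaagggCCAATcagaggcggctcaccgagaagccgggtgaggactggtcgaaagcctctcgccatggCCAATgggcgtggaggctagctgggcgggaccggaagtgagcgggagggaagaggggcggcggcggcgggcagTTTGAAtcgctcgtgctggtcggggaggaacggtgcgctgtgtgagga
Ube2c: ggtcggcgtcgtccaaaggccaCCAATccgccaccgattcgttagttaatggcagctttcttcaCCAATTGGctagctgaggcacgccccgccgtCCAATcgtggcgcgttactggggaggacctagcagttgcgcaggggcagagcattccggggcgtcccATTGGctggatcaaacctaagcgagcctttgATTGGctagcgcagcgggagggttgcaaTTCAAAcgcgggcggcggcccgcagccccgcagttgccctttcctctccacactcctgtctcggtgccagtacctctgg
Ccnb1: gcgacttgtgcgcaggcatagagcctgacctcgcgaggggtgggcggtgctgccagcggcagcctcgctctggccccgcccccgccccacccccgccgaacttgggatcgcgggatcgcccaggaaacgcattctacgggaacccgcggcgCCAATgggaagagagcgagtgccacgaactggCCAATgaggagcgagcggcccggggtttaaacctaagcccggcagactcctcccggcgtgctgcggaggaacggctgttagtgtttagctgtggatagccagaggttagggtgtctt
Aspm: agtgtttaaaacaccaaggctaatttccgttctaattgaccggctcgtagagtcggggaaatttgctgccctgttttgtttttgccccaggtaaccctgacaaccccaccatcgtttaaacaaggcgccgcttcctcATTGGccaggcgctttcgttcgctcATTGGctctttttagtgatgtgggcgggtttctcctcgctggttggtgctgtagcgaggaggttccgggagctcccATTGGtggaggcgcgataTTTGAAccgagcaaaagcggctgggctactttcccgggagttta
Top2a: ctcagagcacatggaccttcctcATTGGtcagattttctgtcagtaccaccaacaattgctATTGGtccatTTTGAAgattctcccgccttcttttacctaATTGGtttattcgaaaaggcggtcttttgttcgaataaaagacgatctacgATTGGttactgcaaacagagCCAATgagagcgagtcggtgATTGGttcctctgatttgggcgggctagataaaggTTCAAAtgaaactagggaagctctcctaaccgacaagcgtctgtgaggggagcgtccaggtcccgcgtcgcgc
Kif11: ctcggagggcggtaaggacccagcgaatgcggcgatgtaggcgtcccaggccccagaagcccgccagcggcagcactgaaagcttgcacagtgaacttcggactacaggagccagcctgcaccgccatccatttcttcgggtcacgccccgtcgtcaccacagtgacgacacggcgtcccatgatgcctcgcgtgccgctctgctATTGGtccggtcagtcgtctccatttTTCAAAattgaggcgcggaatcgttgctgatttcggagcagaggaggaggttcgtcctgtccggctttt
Gas2l3: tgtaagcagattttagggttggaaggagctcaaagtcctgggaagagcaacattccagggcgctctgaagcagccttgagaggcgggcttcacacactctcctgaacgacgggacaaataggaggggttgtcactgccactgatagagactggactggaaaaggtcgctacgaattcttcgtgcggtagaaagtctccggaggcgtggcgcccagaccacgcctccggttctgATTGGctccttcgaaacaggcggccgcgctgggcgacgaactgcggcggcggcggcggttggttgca

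In the Cenpf window TTTGAA began 3 bases after the start, and in Aspm it began 7 bases after it. Ube2c, Top2a and Kif11 had it on the minus strand 29, 23 and 19 bases before the start, and Top2a held a second match 179 bases before it. Ccnb1 and Gas2l3 had no TTTGAA in the window and 2 and 1 CCAAT. In Ube2c a CCAAT and an ATTGG overlap, so that its 6 CCAAT matches cover fewer than 6 separate places. Of 32851 RefSeq promoter windows of all genes, 17.9% held TTTGAA, 37.4% held CCAAT and 6.95% held both. Of the 74 windows of mitosis-list genes higher in G2/M cells than in resting cells (68 of 84 genes matched), 55.4% held TTTGAA, 71.6% held CCAAT and 45.9% held both. The 22 windows of higher replication genes (17 of 18 matched) looked different, with TTTGAA in 4.55%, CCAAT in 63.6% and both in 0. Over the 529 windows of the higher genes (415 of 525 matched) the shares were 28.5%, 54.3% and 19.3%. Over the 187 windows of the lower genes (150 of 204 matched) they were 12.3%, 34.2% and 4.81%. Both sets were drawn from the 5480 measured genes (4277 matched), whose 5438 windows held TTTGAA in 12.8%, CCAAT in 37.9% and both in 5.46%. A match of letters is a description and shows no binding.

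Basal identity was checked against defining markers. The G2/M cells carried Krt14 at 6541 CPM in library 1 and 6911 in library 2, Krt5 at 2809 and 2610, Krt15 at 1703 and 1835, Trp63 at 476 and 499.6 and Itgb4 at 121 and 117. The G2/M marker Aspm, which the rule did not use, stood at 158 and 154 CPM. Of the markers of other cell types, Sox10, Rgs5 and Myh11 were at 0 in the G2/M cells, as were the fibroblast genes Lum and Col1a2. Col1a1 had UMIs in the G2/M cells of both libraries, Pdgfra in library 1 and Col3a1 in library 2. The other genes of the Schwann and smooth-muscle lists were detected, with list sums of 2.38 and 2.80 CPM and of 9.63 and 8.57 CPM. The zeros alone do not show that a cell type was absent. The highest summed lists of other types were fibroblast (152 and 185 CPM, nearly all from Dcn), glandular (91.3 and 95.6 CPM, mostly from the secreted-protein gene Wfdc2 at 77.0 and 84.7) and antigen-presenting (10.2 and 315 CPM). Cells with at least 10 UMIs per 10000 from the fibroblast list were 40 of 1149 and 63 of 1520 G2/M cells, against 122 of 2120 and 134 of 2301 resting cells. Leaving that list aside, cells with at least 10 UMIs per 10000 from a marker list of another cell type made up 0.783% of the G2/M cells in library 1 (9 of 1149) and 0.987% in library 2 (15 of 1520), against 4.06% (86 of 2120) and 3.65% (84 of 2301) of the resting cells.

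G2/M cells made up 32.7% of the low-keratin cells in library 1 (1149 of 3517, interval 31.1 to 34.2) and 37.1% in library 2 (1520 of 4098, interval 35.6 to 38.6). The intervals do not overlap although both libraries came from 1 suspension, so the share varied between technical replicates by more than counting error. S-phase cells were much rarer by their rule, at 3.07% and 2.66%, and resting cells made up 60.3% and 56.1%. A further 3.98% and 4.1% fell between the classes. Of all G2/M cells, 69.7% in library 1 and 69.6% in library 2 lay under the keratin limit. The share also depends on the limit set for the G2/M sum, and over both libraries it was 29.4% at a limit of 20.

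**Figure D1:**
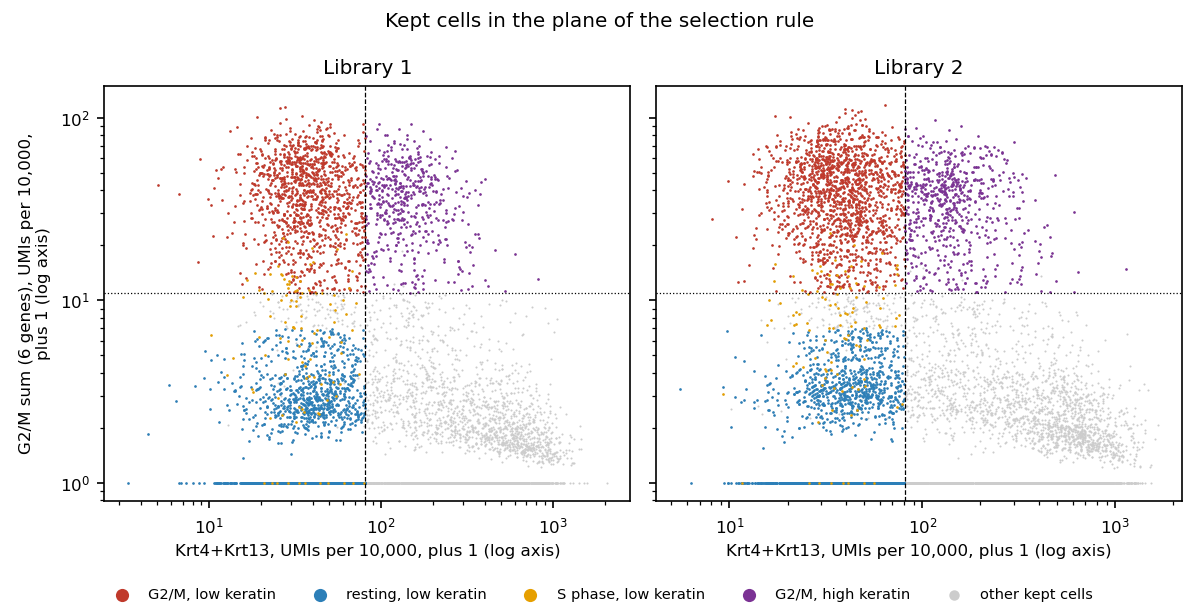
Each point is a kept cell, with Krt4 plus Krt13 on the x axis and the sum of the 6 G2/M genes on the y axis, both in UMIs per 10000 plus 1 on log axes, 1 panel per library. The G2/M cells low in mucosal keratins fill the upper left, 1149 cells in library 1 and 1520 in library 2.

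The class is a range cut from sums per cell, not a separate type, and cells lay on both sides of its limits. With a G2/M sum of 10 to 12, 44 and 57 cells were inside and had Mki67 at 195 and 222 CPM and Cdc20 at 378 and 476, while the 44 and 56 cells at 8 to 10 had Mki67 at 201 and 111 and Cdc20 at 308 and 413. At the keratin limit, the 82 and 89 cells with 70 to 80 had Krt14 at 3182 and 3904 CPM, and the 46 and 77 cells outside with 80 to 90 had 3172 and 3105. Krt14 in members near the keratin limit was thus well under the class value. The median G2/M sum of the class was 37.2 and 38.6, and the median of Krt4 plus Krt13 was 35.7 and 36.9, against 37.3 and 38.8 in resting cells.

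G2/M cells held more UMIs. Their mean was 8764 UMIs per cell in library 1 and 7292 in library 2, against 6274 and 5229 in resting cells, a ratio of 1.40 and 1.39. Mitochondrial UMIs took a similar share, with medians of 4.34% and 4.84% in G2/M cells and 4.34% and 4.88% in resting cells. This gap in RNA content sets how a lower CPM reads: a transcript present in the same number of copies per cell falls by 0.48 on the log2 scale when expressed as a share of all UMIs. UMIs per cell are therefore given beside CPM for the main lower genes. More RNA in a cell and deeper capture of it cannot be told apart here.

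Against resting cells, 525 of 5480 measured genes outside the rule were higher in G2/M cells (9.58%) and 204 were lower (3.72%). Counted instead as mean UMIs per cell, a scale added after the data were seen that moves the median of all genes by 0.49, 1582 of 4583 genes were higher (34.5%) and 32 were lower (0.698%). The balance of higher to lower calls thus depends on the scale, and the calls named here are on the CPM scale unless stated. The median log2 ratio of all genes on the CPM scale was 0.00.

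**Figure D2:**
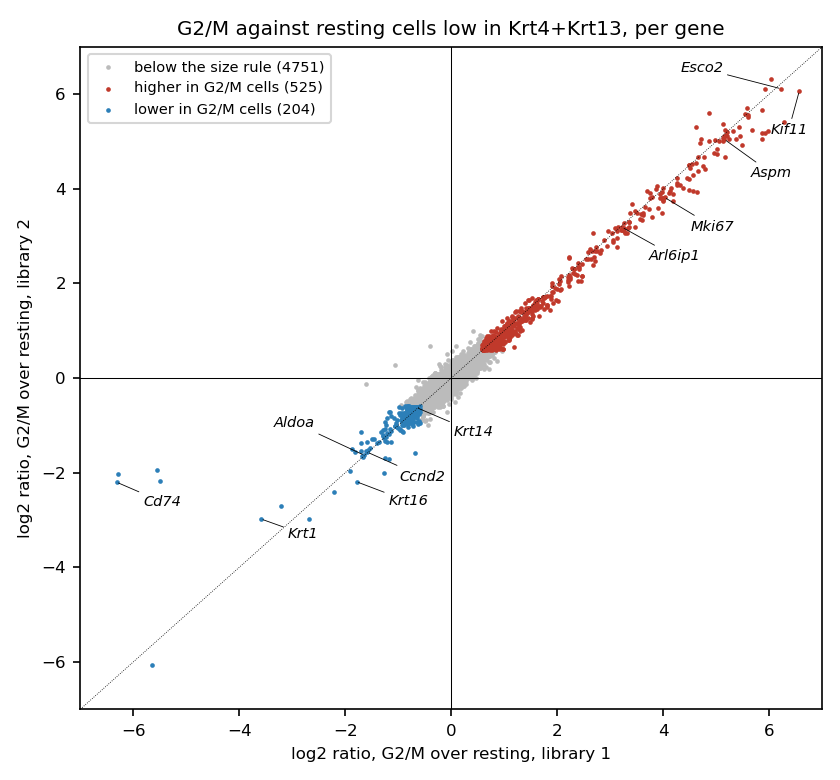
Each point is a gene, with the log2 ratio of G2/M over resting cells in library 1 on the x axis and in library 2 on the y axis. The 525 higher and 204 lower genes are coloured, and the grey genes lie within the rule. Higher genes reach ratios near 6 in both libraries, whereas few lower genes pass -3.

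The machinery of mitosis was higher almost without exception, as the rule would bring about, and the sizes are given as a description. All 13 measured mitotic-entry genes, all 22 spindle genes, all 22 kinetochore genes and all 13 cytokinesis genes were higher, with median log2 ratios of 3.93, 4.14, 3.60 and 4.47. The lists name 19, 25, 30 and 14 genes, and most of those measured could reach the minimum of 20 CPM only through the G2/M cells, so these counts support nothing. Of 16 genes of the spindle checkpoint and the anaphase-promoting complex 14 were higher, and so were 18 of 20 genes of chromosome structure. Those within the rule were the complex subunit Cdc26 (119 and 132 CPM in G2/M cells, 114 and 127 in resting cells), securin Pttg1 (log2 0.50), the topoisomerase paralog Top2b (-0.23) and the cohesin subunit Smc3 (0.44).

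Among regulators of mitotic entry, the polo-like kinase Plk1, which drives entry and spindle assembly, was at 106 and 99.6 CPM in G2/M cells, against 1.80 and 2.74 in resting cells (log2 5.50). The cyclin A gene Ccna2, whose product partners CDK2 and CDK1, stood at 339 and 347 CPM, against 8.50 and 9.31 (log2 5.27). The kinase Cdk1 itself was at 666 and 630.3 CPM, against 18.9 and 18.0 (log2 5.13). Smaller ratios belonged to the phosphatase gene Cdc25b, which activates CDK1 (112 and 104 CPM against 13.2 and 11.6, log2 3.12), and to Pkmyt1, a kinase that restrains CDK1 (35.2 and 35.3 against 6.69 and 8.56, log2 2.21). Activators and the inhibitory kinase were thus higher together.

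The 3 genes that stood highest were Esco2, Kif11 and Gas2l3. Esco2 (chr14:65819038-65833994, minus strand), which acetylates cohesin to tie sister chromatids together, was at 174 and 162 CPM in G2/M cells, against 2.33 and 2.33 in resting cells, a log2 ratio of 6.17 with counting intervals of 5.71 to 6.79 and 5.58 to 6.71. Kif11 (chr19:37376403-37421859, plus strand), the kinesin that pushes spindle poles apart, was at 150.1 and 150.4 CPM, against 1.58 and 2.24 (log2 6.30). Gas2l3 (chr10:89408823-89443967, minus strand), a binder of actin and microtubules with a role in cytokinesis, was at 93.8 and 93.4 CPM, against 1.43 and 1.16 (log2 6.17). None of the 3 approached the G2/M level in resting cells of either library.

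Kinetochore and chromosomal passenger genes followed closely. Ndc80, the microtubule-binding subunit of the outer kinetochore, was at 54.9 and 51.4 CPM in G2/M cells, against 0.902 and 0.748 in resting cells (log2 6.01). Its partner Spc25 was at 312 and 342 CPM, against 6.69 and 7.15 (log2 5.56). Aurkb, the kinase of the passenger complex, was at 171 and 156 CPM, against 2.93 and 3.08 (log2 5.76). The other passenger subunits had smaller ratios, Birc5 (survivin) with 4.59, Cdca8 (borealin) with 3.90 and Incenp with 3.42. The protector of centromeric cohesion Sgol2a (log2 5.58) and the checkpoint kinase Bub1 (5.38) completed this group.

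Spindle, tubulin and condensin genes spanned a wide range of ratios. The microtubule depolymerase Kif2c was at 96.5 and 89.1 CPM in G2/M cells, against 2.63 and 2.58 in resting cells (log2 5.16), whereas Ckap5, a polymerase of microtubules also used between divisions, had a log2 ratio of 2.17 and the spindle-pole protein Numa1 one of 0.73. Of 8 tubulin-list genes 7 were higher, among them Tubb6 (log2 3.46) and Tuba1c (3.22), with Tuba1a at 0.39. Alpha-tubulin genes are close copies, so reads may have been split between them. The condensin subunits Ncapg (90.1 and 95.9 CPM against 2.56 and 2.33, log2 5.25) and Ncaph (5.18) were higher, and so was the proliferation marker Mki67, whose product coats mitotic chromosomes (282 and 255 CPM against 17.3 and 18.0, log2 3.92). Of 11 nuclear-envelope genes 9 were higher, including the lamin gene Lmnb1 (203 and 199.8 CPM against 43.8 and 45.3, log2 2.18) and Lbr (2.20), while Lmna (0.50) was not.

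Genes used at G1 and S divided. Of 20 replication-list genes 18 were higher, with a median of 1.54, headed by the checkpoint mediator Clspn (46.0 and 37.5 CPM in G2/M cells against 1.43 and 1.41 in resting cells, log2 4.88) and thymidine kinase Tk1 (303 and 299.7 against 32.8 and 34.2, log2 3.17). The origin-licensing subunit Mcm6 (0.20) and Gins2 (-0.03), part of the replicative helicase, were within the rule. Resting cells were held to an S-phase sum under 6, so the count of higher replication genes is a description only. Clspn reached the minimum of 20 CPM only through the G2/M cells. The base-excision glycosylase gene Neil3, not on a list, was at 86.8 and 87.3 CPM, against 1.80 and 1.66 (log2 5.65). Replication-dependent histone transcripts mostly lack the poly(A) tail by which this assay captures RNA, and 5 of 68 listed were measured. Hist1h2ae was higher (77.0 and 43.8 CPM against 1.5 and 1.16), while Hist1h2bc (64.1 and 73.7 against 187 and 205, log2 -1.51) and Hist1h1c (53 and 63.4 against 97.7 and 111, log2 -0.84) were lower. Per cell, Hist1h1c lay within 1.5-fold. Histone genes are close copies, and their counts are uncertain for that reason.

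The D-type cyclins Ccnd1 and Ccnd2, which carry growth signals into G1, were lower. Ccnd2 (chr6:127125162-127152193, minus strand) was at 282 and 281 CPM in G2/M cells, against 844 and 834 in resting cells, a log2 ratio of -1.58 with counting intervals of -1.64 to -1.52 and -1.63 to -1.51. Per cell it was 2.47 and 2.05 UMIs in G2/M cells, against 5.30 and 4.36 in resting cells, so it was also lower on that scale (log2 -1.10 and -1.09). Ccnd1 was at 70.3 and 69.1 CPM, against 135 and 126 (log2 -0.90), but its UMIs per cell, 0.616 and 0.504 against 0.845 and 0.658, lay within 1.5-fold. Of the 17 genes of G1 control 8 were higher, such as the CDK-binding phosphatase Cdkn3 (216 and 233 CPM against 13.5 and 14.5, log2 4.01) and the repressor E2f8 (51.1 and 49.9 against 3.23 and 3.57, log2 3.89), and the 2 lower ones were these cyclins.

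**Figure D3:**
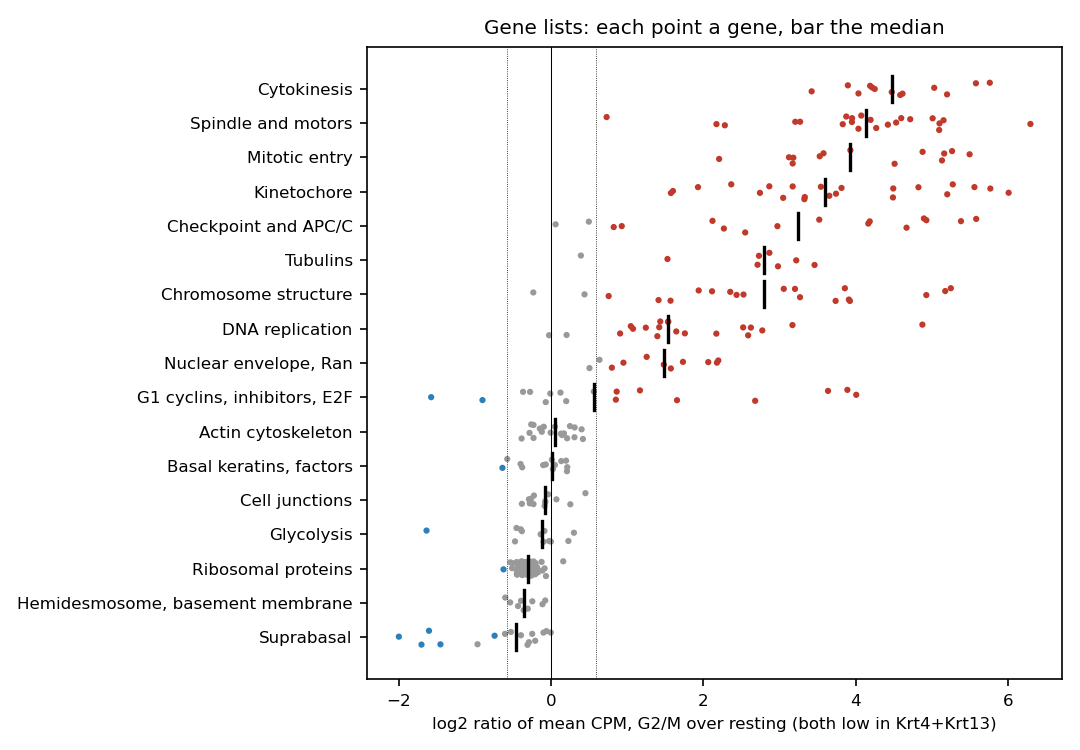
Each point is a gene placed by its log2 ratio of mean CPM in G2/M over resting cells, grouped by gene list, with a bar at the list's median and dotted lines at 0.58 either side of 0. Genes called higher are red, lower blue and within the rule grey. The medians for mitotic entry, spindle, kinetochore, checkpoint, cytokinesis and chromosome structure lie right of the lines, at 2.79 to 4.47. The median of the hemidesmosome list, -0.36, lies between the lines.

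Transcripts for adhesion to the basement membrane differed by less than the 1.5-fold rule. Of 9 hemidesmosome and basement-membrane genes 0 were higher and 0 lower, with a median log2 ratio of -0.36. Itgb4 (chr11:115974709-116008412, plus strand), the gene of the sorted antigen, was at 121 and 117 CPM in G2/M cells, against 135 and 116 in resting cells. Its partner Itga6 was at 251 and 254 CPM, against 353 and 329 (log2 -0.43). The hemidesmosomal collagen gene Col17a1 was at 316 and 277 CPM, against 369.9 and 333 (log2 -0.25). Per cell, Itgb4 was at 1.06 and 0.852 UMIs in G2/M cells, against 0.848 and 0.607 in resting cells, and Itga6 at 2.20 and 1.85, against 2.22 and 1.72.

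Basal keratins stood somewhat lower as a share of RNA, and basal transcription factors did not. Krt14 (chr11:100203162-100207548, minus strand) was at 6541 and 6911 CPM in G2/M cells, against 10301 and 10650.4 in resting cells (log2 -0.64), and was the 1 lower gene of 13 measured on the list of basal keratins and transcription factors. In UMIs per cell Krt14 was at 57.3 and 50.4, against 64.6 and 55.7, a log2 of -0.17 and -0.14, which is within 1.5-fold. Krt15 (log2 -0.58 in the mean, -0.53 and -0.62 by library) and Krt5 (-0.38) were within the rule. Trp63, the master regulator of stratified epithelia, was at 476 and 499.6 CPM in G2/M cells, against 480.5 and 488 in resting cells (log2 0.01), and Sox2 at 82.6 and 85.5, against 75.4 and 69.8 (log2 0.21). Cell-junction genes (0 of 13 called) and actin-cytoskeleton genes (0 of 19 called) were within the rule as well.

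**Figure D4:**
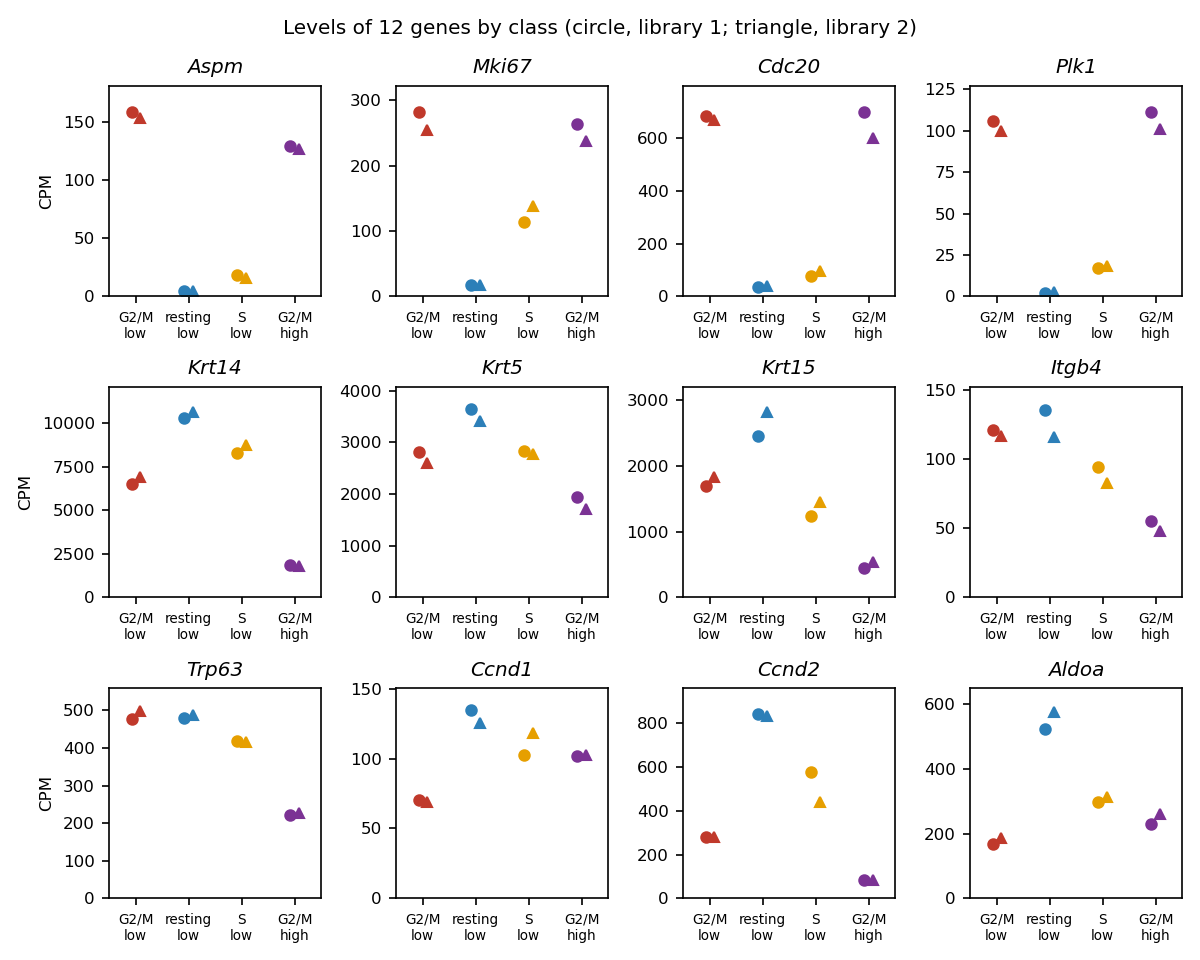
Levels in CPM of 12 genes in 4 classes, from left to right G2/M low, resting low, S phase low and G2/M high in Krt4 plus Krt13; circles are library 1 and triangles library 2, with axes that start at 0. Aspm, Mki67, Cdc20 and Plk1 are high in both G2/M classes, Krt14, Krt15 and Itgb4 are lowest in the G2/M cells high in mucosal keratins, and Ccnd2 and Aldoa are highest in resting cells.

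Among lower genes outside the cell cycle, the glycolytic enzyme aldolase A was lower and the rest of its list was not. Aldoa (chr7:126795234-126800751, minus strand) was at 168 and 186 CPM in G2/M cells, against 525 and 576 in resting cells, a log2 ratio of -1.64 with counting intervals of -1.72 to -1.56 and -1.7 to -1.56. Per cell it was at 1.47 and 1.36 UMIs, against 3.29 and 3.01. It was the 1 lower gene of 12 measured in glycolysis, with 0 higher. Gdpd2, a glycerophosphodiesterase gene (17.6 and 16.4 CPM against 81.8 and 87.8, log2 -2.32), Dlk2, a relative of the Notch-pathway regulator Dlk1 (22.8 and 22 against 86.2 and 85.8, log2 -1.94), and Ahnak2 (41.8 and 38.3 against 134 and 122, log2 -1.67) were lower in both libraries too, and stayed past the rule per cell.

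Several of the lowest genes rested on few resting cells. For BC037156, with 0 and 14 UMIs in G2/M cells against 200 and 1020 in resting cells, 1 resting cell held 85.0% of the UMIs in library 1 and 39.9% in library 2. Krt1, a keratin of cornifying epithelium, was at 7.45 and 13.2 CPM in G2/M cells, against 89.8 and 104 in resting cells (log2 -3.23), and 1 resting cell held 68.9% and 35.8% of its UMIs. Of 16 measured suprabasal genes 0 were higher and 5 lower, namely Krt16, Krt17, Krt6b, Sbsn and Sprr1a. For Krt16 (31.6 and 30.3 CPM in G2/M cells against 109 and 139 in resting cells, log2 -2.0), a single G2/M cell held 63.8% of the G2/M UMIs in library 1 and 52.4% in library 2. Most G2/M cells therefore held less of it than the class value shows.

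Antigen-presentation genes and a simple-epithelial keratin were lower in G2/M cells together with markers of other cell types. Cd74, the invariant chain of class II, was at 4.17 and 178 CPM in G2/M cells, against 333 and 817 in resting cells. The summed level of the antigen-presenting cell list was 10.2 and 315 CPM in G2/M cells, against 579.8 and 1394 in resting cells, and its marker Cd207 was at 0 in the G2/M cells of library 1. Krt7, on the glandular list, was at 7.75 and 3.97 CPM, against 49.5 and 31.2 (log2 -2.79), with a summed glandular level of 91.3 and 95.6 CPM against 208 and 163, and Aqp5 was at 0 in both classes. Without the cells carrying at least 10 UMIs per 10000 from a list other than the fibroblast one, an alternative added after the data were seen, 528 genes were higher (9.68%) and 184 lower (3.37%) of 5457. Dcn, which encodes the matrix proteoglycan decorin and is on the fibroblast list, was at 151 and 184 CPM in G2/M cells, against 278 and 278 in resting cells. The whole fibroblast list summed to 152 and 185 CPM in G2/M cells and to 278 and 278 in resting cells, nearly all of it Dcn, and Lum was at 0 in both classes. The removal left in cells with fibroblast-list UMIs, and Dcn had a log2 ratio of -0.77 after it, against -0.73 with all cells. The part of admixed cells in Dcn was not tested.

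On the signalling and heat-shock lists some genes were called in either direction, as were 13.3% of all genes. These lists are short, so their counts are given for single genes and not as a result about pathways. Of 9 Wnt-list genes only the ligand gene Wnt10a was lower (97.4 and 109 CPM in G2/M cells against 161 and 168 in resting cells, log2 -0.67), and of 12 TGF-beta and BMP genes only the target Tgfbi (log2 -0.79). Of 8 EGF and IGF genes, the IGF-binding protein genes Igfbp3 (-0.89) and Igfbp4 (-0.83) were lower. Among 7 Notch-list genes the feedback inhibitor Nrarp was higher (46.9 and 42.6 CPM against 20.8 and 27.2, log2 0.90) and the ligand gene Dll1 lower (-0.79). Of 12 heat-shock genes Hsp90aa1 (773 and 744 CPM against 403 and 415, log2 0.89) and Hspa4l (0.71) were higher and Hspa1a (-0.89) lower. In UMIs per cell, Wnt10a, Tgfbi, Igfbp3, Igfbp4, Dll1 and Hspa1a fell within 1.5-fold. Of 83 ribosomal protein genes 1 was lower, Rps27rt, a close copy of another ribosomal gene, and the list's median was -0.30.

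Against the 217 S-phase cells low in keratins (108 and 109), which express many proliferation genes too, the G2/M cells were higher in most spindle and cytokinesis genes and lower in most replication genes. Of 5494 genes, 305 were higher (5.55%) and 286 lower (5.21%), with a median of 0.03. These counts rest on agreement between the libraries, since library 1 alone gave 571 higher and 492 lower genes and library 2 alone 586 and 524. Spindle genes (23 of 24 higher, median 1.59), cytokinesis genes (12 of 13, 1.43), checkpoint genes (13 of 16, 1.21) and mitotic-entry genes (11 of 14, 1.62) were mostly higher. Kinetochore genes divided, with 10 of 27 higher and the inner-kinetochore gene Cenph lower (50.7 and 55.8 CPM in G2/M cells against 106 and 107 in S-phase cells, log2 -1.0). Replication genes were lower, 25 of 27, with a median of -1.55. Both classes were cut by their G2/M and S-phase sums, so these counts of mitosis and replication genes follow from the rule. They are a description only.

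Cenpa, the gene of the centromeric histone, was at 695 and 700.5 CPM in G2/M cells, against 46.6 and 54.8 in S-phase cells (log2 3.78). The nuclear importin Kpna2 was at 196 and 191 CPM, against 18.1 and 15.5 (log2 3.53), and Cdc20, the activator of the anaphase-promoting complex, at 683 and 669.6, against 76.4 and 94.1 (log2 2.99). Aspm, the spindle-pole protein, had 158 and 154 CPM, against 18.1 and 15.5 (log2 3.22). These genes were low in the S-phase class by a wide margin, as the cut by the phase sums would bring about. Gas2l3 rested on 3 and 1 UMIs in the S-phase cells, and its ratio of 93.8 and 93.4 CPM to 3.88 and 1.41 has counting intervals of 3.04 to 6.88 and 3.57 to 11.4 on the log2 scale. Cyclin B2 (Ccnb2, log2 2.82), the phosphatase Cdc25c (3.07) and Arl6ip1 (2078 and 2183 CPM against 273 and 309, log2 2.87) were higher as well, whereas Esco2 was at 151 and 209 CPM in S-phase cells, at the level of the G2/M cells.

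On the lower side stood regulators of the G1-to-S step. E2f1, the transcription factor that opens S phase, was at 7.65 and 6.04 CPM in G2/M cells, against 63.4 and 74.5 in S-phase cells (log2 -3.33), and its target cyclin Ccne1 at 9.14 and 9.11, against 66.0 and 53.4 (log2 -2.71). Chaf1b, a chaperone that places histones on new DNA, was at 16.3 and 12.7 CPM, against 116 and 104 (log2 -2.93). The helicase subunits Mcm6 (-2.70), Mcm2 (-2.51) and Mcm4 (-2.19), Gins2 (-2.56) and the DNA ligase Lig1 (-2.17) were lower too. Pkmyt1 was lower (-0.77) although it was higher than in resting cells. Of 9 hemidesmosome and 13 basal genes 0 were called in this comparison. The S-phase class held few cells, and its intervals are wide.

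Set beside the 1164 G2/M cells that had passed the keratin limit (500 and 664), mitotic genes lay mostly within the rule and hemidesmosome genes mostly did not. Of 5435 genes, 255 were higher in the low-keratin cells (4.69%) and 197 lower (3.62%), 8.32% in all. None of 15 mitotic-entry, 24 spindle and 13 cytokinesis genes was called, with medians of 0.20, 0.21 and 0.27. Plk1 was at 106 and 99.6 CPM in low-keratin G2/M cells, against 111 and 101 in high-keratin ones, and Cdc20 at 683 and 669.6, against 698 and 599.7. By contrast, 7 of 8 hemidesmosome genes were higher, with a median of 1.06. Of 13 basal keratin and transcription factor genes 3 were higher, Krt14, Krt15 and Trp63, and the list's median was 0.13. The limit on Krt4 and Krt13 chose the cells, so genes that vary with these keratins had to differ. Both classes met the same condition on the G2/M and S-phase sums. The median G2/M sum was 37.2 and 38.6 in low-keratin cells and 35.1 and 34.7 in high-keratin ones. Alike levels of mitotic genes thus follow from the rule and are a description only.

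Lamb3, a chain of laminin 332, was at 47.6 and 47.7 CPM in low-keratin G2/M cells, against 13.6 and 14.1 in high-keratin ones (log2 1.78), Itgb4 at 121 and 117, against 55 and 47.8 (log2 1.21), and Col17a1 had a log2 ratio of 1.36. Krt14 was at 6541 and 6911 CPM, against 1852 and 1801 (log2 1.88), and Trp63 at 476 and 499.6, against 223 and 226 (log2 1.12). The matrix genes Dcn (151 and 184 CPM against 24.8 and 29.0, log2 2.64), Sparc (2.61) and Smoc2 (2.60) had the highest ratios, ranked by the smaller of the libraries' values. They were followed by Wfdc2, the glandular-list gene (77.0 and 84.7 CPM against 14.1 and 17.2, log2 2.37), Igfbp3 (2.41), the cadherin gene Cdh13 (2.34), the basement-membrane proteoglycan gene Agrn (2.19) and the Wnt ligand genes Wnt6 (2.21) and Wnt10a (2.08). The marker lists moved with these genes, the glandular sum being 91.3 and 95.6 CPM in low-keratin G2/M cells against 27.2 and 22.8 in high-keratin ones, and the fibroblast sum 152 and 185 against 24.8 and 29.2. Their part in the result was not tested. Ccnd2 was also higher in the low-keratin cells (282 and 281 CPM against 83.7 and 84.8, log2 1.74), and the CDK inhibitor Cdkn1a was lower (45.5 and 51.9 against 140.1 and 153, log2 -1.59). Ccnd2 thus lay below its resting level but above its level in high-keratin G2/M cells.

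Of 20 suprabasal genes 14 were lower in the low-keratin G2/M cells, with a median of -1.42, among them Zfp750, a transcription factor of terminal differentiation (7.35 and 5.77 CPM against 40.2 and 41.6, log2 -2.64), and the receptor gene Notch3 (8.04 and 5.68 against 38.8 and 33.6, log2 -2.40). The 1 higher was Krt17 (log2 1.79). The Notch target Hes1 was at 188 and 212 CPM, against 369 and 419 (log2 -0.98). Detoxification genes were among the lowest, with Gsta1 (11.9 and 14.8 CPM against 88.2 and 97.6, log2 -2.80) and Gsta2 (-2.75), close copies whose reads may be shared, together with the metallothionein gene Mt4 (-2.18). Of 10 cholesterol-synthesis genes 6 were lower, such as Fdps (38.3 and 38.3 CPM against 82.0 and 91.9, log2 -1.18).

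G2/M cells were compared with resting cells on both sides of the keratin limit, and the contrast differed in size. Of 5313 genes, the log2 ratio of G2/M over resting was at least 0.58 higher in low-keratin cells for 150 (2.82%) and at least 0.58 lower for 460 (8.66%) in both libraries. The spindle list had a median ratio of 4.14 in low-keratin cells and 5.01 in high-keratin cells, or 3.96 with the match described next. High-keratin resting cells lie much further along in keratins than high-keratin G2/M cells, with a median of Krt4 plus Krt13 of 136 and 136 in the G2/M cells and 357 and 396 in the resting cells, which is not so on the low side. With high-keratin cells restricted to 80 to 160, a range chosen after the data were seen, 31 of 5416 genes (0.572%) were higher by this measure and 10 (0.185%) lower. The counts of differing genes thus depended on the match in keratins.

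Within the G2/M class, cells spread from 10 to far higher on the rule's sum. A sum of 10 to 20 was held by 15.8% and 15.6% of them, 20 to 40 by 39.1% and 37.6%, and 40 and above by 45.1% and 46.8%. Comparing the top range with the lowest, 213 of 5524 genes outside the rule were higher (3.86%) and 103 lower (1.86%). Arl6ip1 was at 584, 1452 and 3109 CPM from the lowest to the highest range, Kpna2 at 56.0, 127 and 286, and Cdc20 at 375, 457 and 934. In the other direction, the histone-mRNA binding protein gene Slbp was at 357, 304 and 87.3 CPM, Chaf1b at 36.0, 18.9 and 4.76 and Mcm6 at 48.2, 28.9 and 10.2. The lowest range thus held more of these replication transcripts, and the top range more of the mitotic ones. Because the ranges are cut from the rule's own sum, this describes the cut and not separate types of cell.

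By list, 20 of 24 spindle genes (median 1.08), 11 of 14 mitotic-entry genes (1.07) and 12 of 13 cytokinesis genes (0.89) were higher in the top range, and 18 of 24 replication genes (-0.96) and 6 of 8 histone genes (-0.96) lower. Basal genes stayed within the rule across the ranges. Krt14 was at 7705, 6425 and 6665 CPM, Trp63, which climbed by less than 1.5-fold, at 439, 486 and 504, and Itgb4 at 121, 114 and 123, and 0 of 13 basal and 0 of 9 hemidesmosome genes were called. The lowest range also held keratin and inflammatory transcripts in a few cells. Krt16 was at 169, 8.89 and 7.50 CPM, but in the lowest range its UMIs came from 8 and 19 cells, with 85.3% and 65.4% in 1 cell. The chitinase-like gene Chil4 was at 3818, 740.3 and 442 CPM, with 91.4% and 95.1% of the UMIs of the lowest range in its 10 richest cells. These values describe single cells and not the range.

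**Figure D5:**
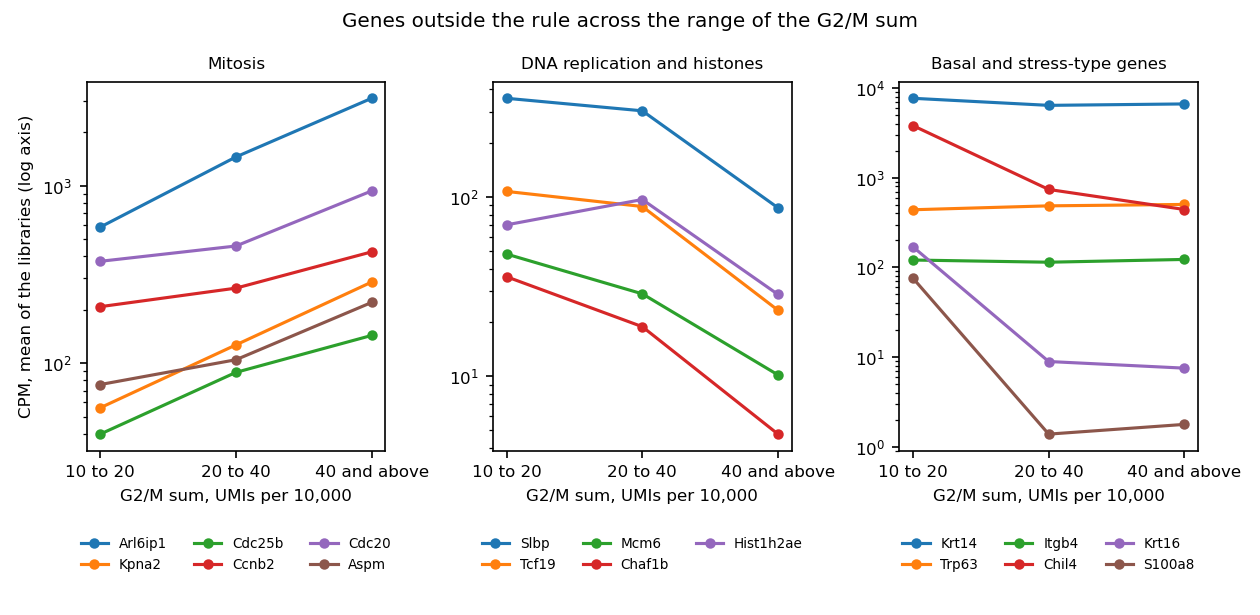
Levels in CPM (log axis, mean of the libraries) of genes outside the rule across 3 ranges of the G2/M sum, 10 to 20, 20 to 40 and 40 and above, for genes that climb, genes that decline and basal genes. Arl6ip1 climbs between 584 and 3109 CPM, Slbp declines between 357 and 87.3, and Krt14 stays between 6425 and 7705.

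The members with a remaining S-phase sum were examined as a split chosen after the data were seen. A sum of 6 or more was found in 19.1% of members in library 1 (219) and 18.2% in library 2 (276). Against the remaining members, 253 of 5502 genes were higher in them (4.6%) and 165 lower (3.0%), with 24 of 25 replication genes higher and a median of 1.65. Slbp was at 652 CPM in these cells, against 113 in the others, Pcna at 327, against 60.7, and Ccne1 at 39.7, against 2.74. Cdc20 was at 238 CPM, against 768, and Cenpa at 299, against 781. Mki67 was at 266 CPM in these cells and at 269 in the others.

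A second split, also chosen after the data were seen, set members in which Ube2c plus Ccnb1 exceeded Top2a (785 and 1079 cells) against those in which Top2a exceeded them (304 and 361). Of 5565 genes 98 were higher (1.76%) and 225 lower (4.04%). Cdc20 was at 804 CPM in the Ube2c and Ccnb1 cells, against 303 in the Top2a cells, Cenpa at 811, against 357, and Cdc25c at 115, against 48.7. Pcna was at 64.7 CPM, against 233, the linker histone gene Hist1h1b at 21.2, against 83.1, and 23 of 25 replication genes were lower (median -1.51). Krt14 was at 6754 CPM, against 6669. Along each of these splits Krt14 stayed within the rule. Cell-cycle transcripts had to move, since the splits were cut by them. In the split by the S-phase sum, 1 of 13 basal genes (Bcl11b) and 1 of 9 hemidesmosome genes (Dst) were lower. In the second split 0 of either list were called.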

How the data were processed

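The values are UMI counts per gene and cell barcode deposited by the authors as sparse matrices, 1 per technical replicate. Per the submitters' processing notes they were made with Cell Ranger on mm10. The version, the annotation and the cell-calling filter are not given in the sources used here. The lowest barcode held 3364 UMIs in library 1 and 3149 in library 2.

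A cell was kept (6907 and 8563) if it had 500 genes or more and no more than 10% of its UMIs from mitochondrial genes. Classes were cut as described above, with S-phase cells at an S sum of at least 10 and above the G2/M sum. Counts were summed per class and library. A count of 0 was set to 3 for a ratio, and the 15 genes of the rule were left out of every count of genes. With 1 independent sample and members chosen by their transcripts, no model was fitted across genes. Intervals are 95% exact, with Clopper-Pearson bounds for shares and conditional binomial bounds for ratios, and leave out every error but that of counting. The precision rests on summed counts, from 10069265 and 11083551 UMIs in the G2/M cells to 772606 and 711876 in the S-phase cells.

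The members, gene lists and comparisons were chosen with earlier results of these data known. Named genes are the 12 highest and 12 lowest of each comparison, the markers, up to 4 per list and a fixed set of basal and cyclin genes, of which a part is printed. Cdk1, Birc5 and the genes of the splits within the class were chosen after their values were seen. Of 27998 gene identifiers 27722 (99.0%) were matched to GENCODE M21 on GRCm38, the assembly of mm10, for coordinates. Alternatives were another scaling (median of ratios), other minimum levels, cells thinned to 3000 UMIs, cell-weighted means, tighter mitochondrial, keratin, phase and depth limits, and each library alone. The summing and calling steps were tested on simulated data. Software was Python 3.11.15 with numpy 2.4.6, scipy 1.17.1, pandas 2.3.3, scanpy 1.11.5, anndata 0.12.19 and matplotlib 3.10.9.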

Additional observations from a re-analysis of the deposited data

Results flagged for a closer look

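For 7 named or listed genes the G2/M-to-resting difference ran one way in both libraries among low-keratin cells and the other way in both libraries among high-keratin cells, which is what brought them here. The difference between the groups was not tested. The class II genes had log2 ratios of -2.66 among low-keratin cells and 1.98 among high-keratin cells for Cd74 (difference -4.65), -2.42 and 1.95 for H2-Aa (-4.37), -2.63 and 1.89 for H2-Ab1 (-4.51) and -2.54 and 1.94 for H2-Eb1 (-4.47). Cells with at least 10 UMIs per 10000 from a marker list of another cell type, the fibroblast list left aside, were 0.783% and 0.987% of low-keratin G2/M cells, against 4.06% and 3.65% of low-keratin resting cells, and 1.0% and 0.301% of high-keratin G2/M cells, against 0.468% and 0.275% of high-keratin resting cells. The fibroblast list reached that level in 40 of 1149 and 63 of 1520 low-keratin G2/M cells, against 122 of 2120 and 134 of 2301 low-keratin resting cells. The antigen-presenting list reached it in 1 of 500 and 1 of 664 high-keratin G2/M cells. On the low side it did so in 0 of 1149 and 4 of 1520 G2/M cells, against 10 of 2120 and 25 of 2301 resting cells. Cd74 averaged only 41.0 CPM in high-keratin G2/M cells and 10.4 in high-keratin resting cells. The part of such single cells in the class II ratios was not tested.

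Dcn had ratios of -0.73 and 0.72 (difference -1.44), with means of 168 CPM in low-keratin G2/M cells, 278 in low-keratin resting cells, 26.9 in high-keratin G2/M cells and 16.4 in high-keratin resting cells. Tgfbi had -0.79 and 0.65 (-1.45), and the squalene synthase gene Fdft1 had 0.91 and -0.67 (1.58). With high-keratin cells restricted to Krt4 plus Krt13 of 80 to 160, the ratios there were -1.01 for Dcn, -0.78 for Tgfbi, 0.58 for Fdft1, -1.02 for Cd74, -1.21 for H2-Aa, -0.57 for H2-Ab1 and -0.78 for H2-Eb1. In all, 12 genes ran in opposite directions with all high-keratin cells, and 0 did in that range.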

How the results depend on the processing

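Named genes on the marker lists of other cell types, such as Cd74, Krt7, Wfdc2 and Dcn, were left out of the check of directions. In the comparisons with resting, S-phase and high-keratin G2/M cells, no other called gene among those named changed direction under an alternative run. In the difference between the low- and high-keratin contrasts Igfbp3 and Krt17 did, at -0.85 and -1.29 with all high-keratin cells and at 1.49 and 1.23 with high-keratin cells at 80 to 160. Over all alternatives, and without those marker-list genes, 42 values of named genes fell within the rule and 52 came past it against resting cells. The values were 27 and 60 against S-phase cells and 31 and 39 against high-keratin G2/M cells. Minimum levels of 5 and 50 CPM, in that order, gave 897 and 272 higher genes against resting cells and 503 and 91 lower, 629 and 155 higher against S-phase cells and 572 and 126 lower, and 637 and 104 higher against high-keratin G2/M cells and 335 and 101 lower, since the number of genes counted changes with the minimum. In UMIs per cell the counts against resting cells were 1582 and 32. Within Krt4 plus Krt13 of 0 to 20, 339 genes were lower than in resting cells. With the keratin limits at under 40 and at least 160, 505 genes were higher and 310 lower than in high-keratin G2/M cells. Each library alone gave 567 to 621 higher and 266 to 275 lower genes against resting cells, 571 to 586 and 492 to 524 against S-phase cells, and 318 to 356 and 225 to 250 against high-keratin G2/M cells. The difference between the low- and high-keratin contrasts gave 185 to 188 and 636 to 696 genes from each library alone, 270 lower with thinned cells, and 31 and 10 with high-keratin cells at 80 to 160. The G2/M share of low-keratin cells was 29.4% at a G2/M sum of at least 20, 35.7% with thinned cells, and 32.7% to 37.1% by library, against 34.9% over both. The cause of these changes was not tested. Median-of-ratios scaling gave 483 and 243 genes against resting cells, 267 and 320 against S-phase cells and 206 and 217 against high-keratin G2/M cells. Depth limits the S-phase class most, with 108 and 109 cells. No paired analysis was possible because the 2 libraries are splits of 1 suspension and no test was run.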

Other observations

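Between the G2/M and S-phase cells low in keratins, where 10.8% of all genes were called, the stress and signalling lists were counted as well. On the heat-shock list 1 gene was higher and 1 lower of 13, on the TGF-beta and BMP list 1 was higher and 3 lower of 13, 1 of 7 immediate early genes was higher, and 0 of 8 Wnt, 0 of 6 Notch and 0 of 9 EGF and IGF genes were called. The mitochondrial chaperonin gene Hspd1 was at 168 and 173 CPM in G2/M cells, against 340.4 and 322 in S-phase cells (log2 -0.96), and the ligand gene Tgfb1 at 31.9 and 31.1, against 73.8 and 63.2 (log2 -1.12). The transcription factor gene Klf6 was at 101 and 104 CPM in G2/M cells, against 45.3 and 39.3 (log2 1.28), and the chaperone gene Hspa4l had a log2 ratio of 0.99. Against resting cells, the transcriptional repressor gene Mxd3 was at 108 and 106 CPM in G2/M cells, against 2.48 and 2.66 (log2 5.38), and the nuclease gene Ankle1 at 69.6 and 68.7, against 1.43 and 1.5 (log2 5.56). These are values of 1 pooled suspension with no test.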
